A study of Mus musculus with 9 samples.

Results

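The genes that encode the proteins of the cytosolic ribosome were examined across CD11b+ B cells, CD11b- B cells and peritoneal macrophages (PMs). They were chosen by name alone, as protein-coding genes called Rpl or Rps followed by a digit, or Rplp0, Rplp1, Rplp2 or Rpsa, leaving out the Rps6k kinases. This gave 93 of 55322 genes, of which 21821 are protein-coding. For 77 of the 93 the gene is the main copy for 1 ribosomal protein, 46 in the large and 31 in the small subunit, and these are called canonical below. The other 16 are paralogs, retrocopies annotated as protein-coding, and Rps19bp1, which carries such a name but encodes a binding partner of a ribosomal protein. The RNA came from 3 libraries in each of 3 groups, all from wild-type mice. CD11b- and CD11b+ B cells came from BM taken 48 h after intraperitoneal LPS (5 mg/kg), an endotoxin of the bacterial outer membrane, and were sorted once cells carrying CD3, CD4, CD8, Gr-1, NK1.1 or TER119 had been depleted. PMs, gated as CD11b+F4/80+, came from the peritoneal cavity of untreated mice, so cell type, tissue and LPS cannot be told apart in any comparison with PMs. No group holds B cells from untreated mice, and although the study gives its FPKM values with the SD it uses for biological replicates, no source used here says whether each library came from a separate animal or a pool, so p-values measure the spread between these libraries.

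A ribosome holds 1 copy of nearly every ribosomal protein, with the acidic stalk proteins as the known exception, and the genes are transcribed strongly in all growing cells. Their messages begin with a run of pyrimidines at the cap, the terminal oligopyrimidine tract, through which mTOR and LARP1 set how well they are translated. RNA levels of these genes therefore measure message supply and not ribosome number or protein synthesis, and in bulk samples fewer cells of a type and less RNA per cell cannot be told apart. In macrophages and B cells activated by LPS the family is known mainly as a part of the growth programme, together with genes of ribosome biogenesis in the nucleolus.

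The sequences around the transcription starts show what the family shares beyond its name. Of 67 promoters of canonical genes in the RefSeq table (GRCm38.p6, for 57 of the 77 genes), 54 (80.6%) held a run of at least 8 pyrimidines, on the gene's strand, within 50 bases of the annotated start. Such a run was found in 35.7% of 32851 promoters of all genes and in 34.7% of 75 promoters of mitochondrial ribosomal protein genes, which encode the separate ribosome of mitochondria. Runs of 8 purines went the other way, with 23.9% of the canonical promoters against 38.1% of all. The letters CCGGAAG, in either strand a core that ETS factors bind, were found in 37.3% of the canonical promoters over the whole 300 bases, against 34.7% of the mitochondrial set and 8.86% of all. A match of letters is a description and not a site. The windows below run from 40 bases before to 30 bases from the start, 5′ to 3′ on the gene's strand, with 1 pyrimidine run in capitals. They show genes that were lower in CD11b- B cells than in PMs (Rpl7a, Rps12, Rplp2), the paralog Rps27l beside its main copy Rps27, and genes that were not called lower (Rpl4, Rpl13a). For Rps27l 1 of 2 annotated starts is shown, and the window of the other held no run of 8. The window shown for Rps27l also holds a second run of 9, nearer the start and left in lower case.
Rpl7a (chr2:26910767-26910836, plus strand): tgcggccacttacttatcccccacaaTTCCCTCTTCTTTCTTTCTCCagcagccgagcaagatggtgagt
Rps12 (chr10:23787180-23787249, minus strand): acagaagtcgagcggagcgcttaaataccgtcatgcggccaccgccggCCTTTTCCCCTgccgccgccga
Rplp2 (chr7:141447611-141447680, plus strand): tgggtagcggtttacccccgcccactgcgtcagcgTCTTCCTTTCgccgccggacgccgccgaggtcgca
Rps27l (chr9:66946046-66946115, plus strand): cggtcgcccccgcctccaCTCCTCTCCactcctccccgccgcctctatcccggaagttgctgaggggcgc
Rps27 (chr3:90213619-90213688, minus strand): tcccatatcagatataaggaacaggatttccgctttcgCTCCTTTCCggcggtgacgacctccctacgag
Rpl4 (chr9:64173347-64173416, plus strand): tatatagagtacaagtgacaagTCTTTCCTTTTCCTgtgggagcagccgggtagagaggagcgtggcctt
Rpl13a (chr7:45128716-45128785, minus strand): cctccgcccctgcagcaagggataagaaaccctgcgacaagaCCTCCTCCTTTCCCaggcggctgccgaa
The run was present in genes of both kinds, from 9 bases in Rps27 and Rps27l to 21 in Rpl7a. For Rps3, whose mean in CD11b+ B cells exceeded that of PMs, the window held no run of 8.

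The 93 genes took 4.37 to 5.72% of the reads counted on genes in PMs, 3.73 to 4.41% in CD11b- and 4.30 to 7.14% in CD11b+ B cells. By replicate the shares were 5.72, 5.64 and 4.37% in PMs, 3.73, 4.41 and 4.18% in CD11b- B cells and 4.30, 4.67 and 7.14% in CD11b+ B cells. The highest share belonged to CD11b+ replicate 3, which stood apart from the other libraries of its group, while replicates 1 and 2 lay within the PM range or just below it. Group means were 5.24 ± 0.757% (SD, n = 3), 4.11 ± 0.347% and 5.37 ± 1.54%. The median FPKM of the 77 canonical genes, that is fragments scaled to exon length and to all reads on genes, was 356, 327 and 255 in PMs, 218, 251 and 241 in CD11b- B cells and 259.5, 282 and 429 in CD11b+ B cells. It ordered the libraries of each group as the share did. Among the 100 genes with the highest FPKM of a library, 16 to 22 belonged to the family in CD11b- B cells, 17 to 29 in PMs and 22 to 32 in CD11b+ B cells. Because replicate 3 decides where the CD11b+ group lies, values without it are given beside the main results that rest on it.

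**Figure D1:**
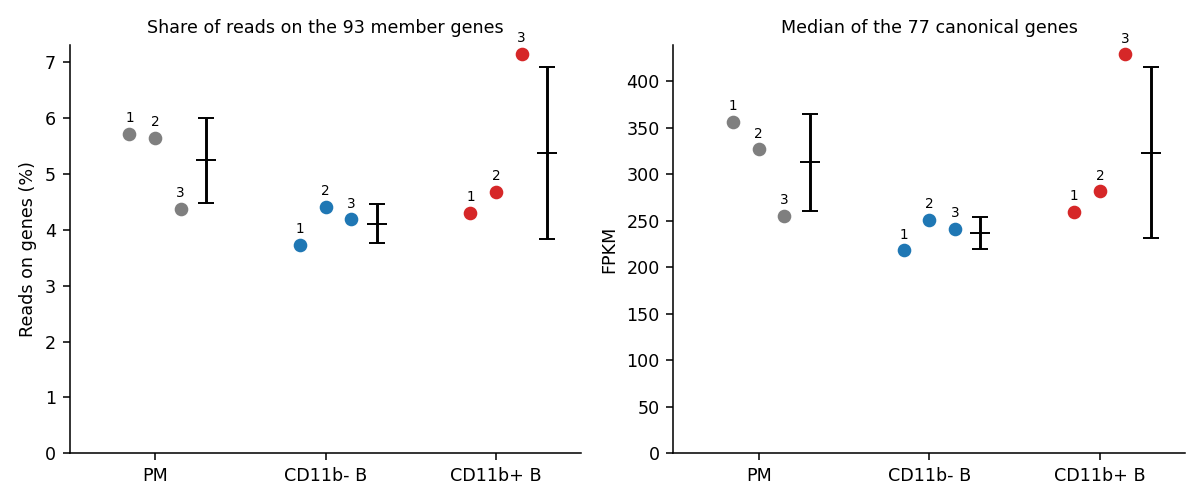
Share of reads on the 93 ribosomal protein genes (left, %) and median FPKM of the 77 canonical genes (right) in each library. Numbered points are replicates and the bar beside them is mean ± SD (n = 3). CD11b+ replicate 3 lies highest in both panels, at 7.14% and 429 FPKM.

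Depth was 18014658 to 35251215 reads on genes per library, with medians of 20180280 in PMs, 33373775 in CD11b- B cells and 29371573 in CD11b+ B cells. B cell markers (10 genes) summed to 12752 to 16021 FPKM in the B cell groups and 133 to 252 in PMs, and macrophage markers (10 genes) to 20442 to 55023 in PMs, 35.1 to 48.3 in CD11b- B cells and 283, 262 and 84.5 in replicates 1, 2 and 3 of CD11b+ B cells. Markers of other cells also moved with the CD11b+ group. Neutrophil markers (10 genes) summed to 638, 1535 and 215 in its replicates against 1.79 to 2.97 in CD11b- B cells and 4.26 to 21 in PMs, where Ly6g was at 0, although Gr-1 positive cells had been depleted. Plasma cell markers (7 genes) reached 288, 252 and 641 against 101 to 179 in CD11b- B cells, and proliferation markers (7 genes) 268, 246 and 83.7 against 41.2 to 126. Erythroid markers (7 genes) summed to 38.9 to 49.8 against 2.22 to 25.5. Thus replicate 3, with the most ribosomal protein RNA, had the lowest neutrophil, macrophage, erythroid and proliferation sums and the highest plasma cell and B cell sums of its group, and 5.03% of its reads were on immunoglobulin genes against 3.31 and 3.06% in replicates 1 and 2. The part of these cells in the results was not tested.

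Levels of the canonical genes spread widely although their proteins are needed in equal numbers. Levels are given in FPKM in the order of replicates 1, 2 and 3, and log2 fold changes as differences of mean log2(FPKM + 1) ± SE. Mean FPKM over the 9 libraries ran from 7.22 for Rps10 to 1480 for Rps3a1, and the median rank among all genes was 158. Among the highest genes were Rps3a1, Rplp1 and Rpl36. Rps3a1 (ENSMUSG00000028081, chr3:86137940-86142702), a protein of the small subunit near the exit of the message, ranked 25 among all genes, with 2236, 1640.0 and 1457 in PMs, 1107, 1211 and 1235 in CD11b- B cells and 1249, 1356 and 1827 in CD11b+ B cells. Its PM libraries lay above all CD11b- libraries and overlapped those of CD11b+ B cells. Rpl36 ranged from 581 to 1488 FPKM over the 9 libraries.

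The 5 lowest canonical genes were Rps10, Rpl24, Rpl13a, Rps15a and Rpl22. Rps10, a protein of the 40S head, had only 8.09, 5.61 and 5.73 in PMs, 5.98, 7.24 and 8.05 in CD11b- B cells and 7.73, 7.95 and 8.56 in CD11b+ B cells, and ranked 6185. The groups overlapped. Rpl24, which bridges the subunits, had 23.6, 11.8 and 8.13 in PMs, 8.90, 6.15 and 9.12 in CD11b- B cells and 10.4, 8.83 and 12.3 in CD11b+ B cells. PM replicate 1 was high for this gene, and the other libraries of the 3 groups were mixed. Many genes of the family are known to have processed copies elsewhere in the genome. Of the stretches of 100 bases in the transcript of Rps10, 47.7% also stood in transcripts of other genes, and for Rpl24 it was 80.1%. Over the family, 30 of 77 canonical genes shared more than 50% of these stretches with another gene and 5 shared none. The counting of reads that fit several genes was not given in the sources used here, and the part of shared stretches in low values was not tested. Genes with names of ribosomal protein pseudogenes (309) took 0.0126 to 0.0244% of the reads.

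**Figure D2:**
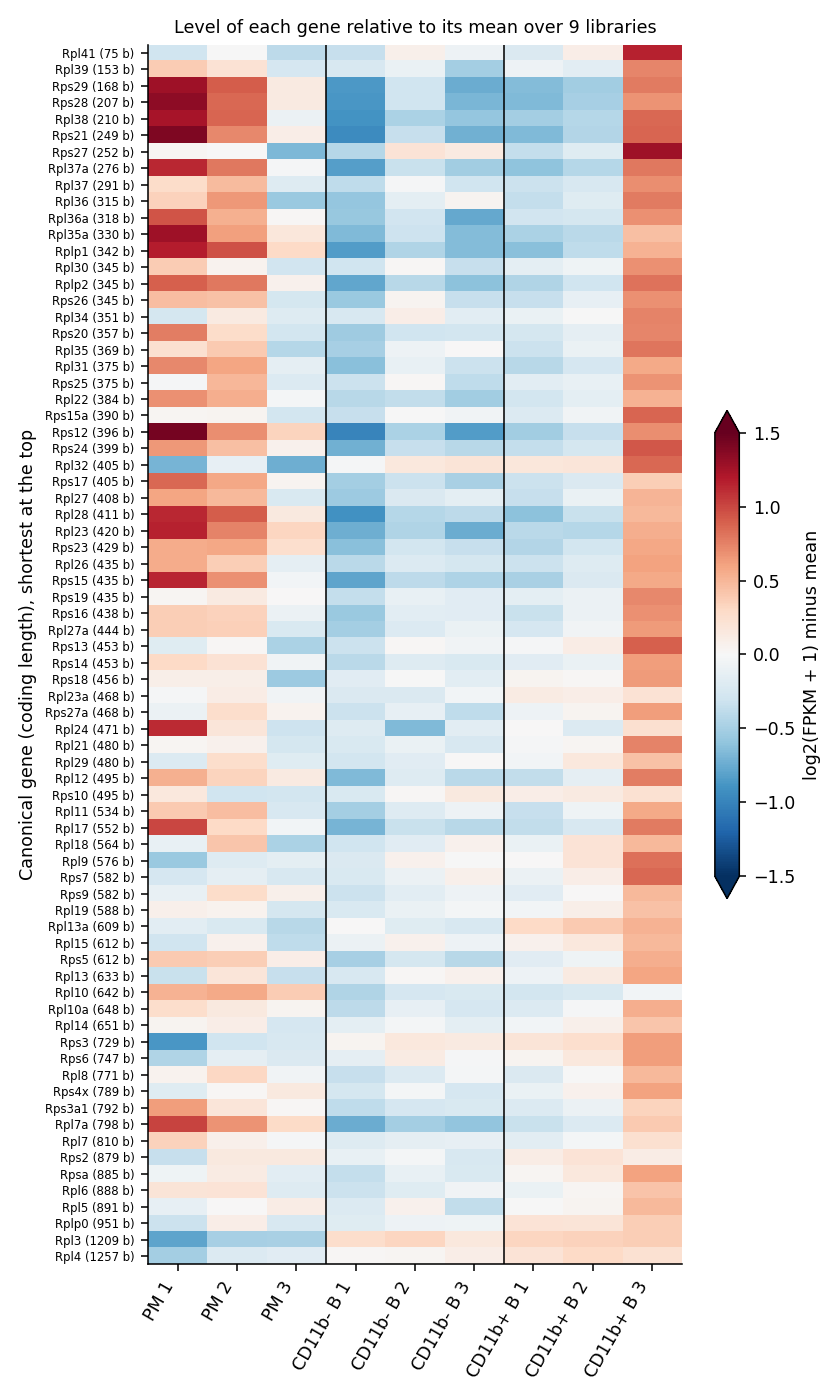
log2(FPKM + 1) of 74 of the 77 canonical genes, minus the mean of each gene over the 9 libraries, with genes ordered by coding length and colours clipped at 1.5 in each direction. The CD11b+ replicate 3 column is high for most genes, and the CD11b- columns are low, with the strongest colours among genes of short coding length.

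The balance between large and small subunit genes was not the same in all groups. The summed FPKM of the 46 large subunit genes was 1.12, 1.22 and 1.12 times that of the 31 small subunit genes in PMs, 1.28, 1.27 and 1.35 times in CD11b- B cells and 1.27, 1.28 and 1.25 times in CD11b+ B cells. Every B cell library lay above every PM library, by little, since the highest PM value was 1.22 and the lowest B cell value 1.25. Replicates of CD11b+ B cells differed more for this family than for coding genes in general, with a median SD of the log2 values of 0.46 against 0.23. In PMs these were 0.30 and 0.36, and in CD11b- B cells 0.18 and 0.19.

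The first comparison asked whether the B cells that carry CD11b differ in this family from those that do not. Ribosomal protein genes had higher means in CD11b+ than in CD11b- B cells, all 77 canonical genes among them (all but Rpl3 and Rpl10 with quantile normalization), but no single gene passed the test. In limma on log2(FPKM + 1), adjusted by the Benjamini-Hochberg method over 21778 genes, 0 of the 89 members that passed the filter on low FPKM were called higher and 0 lower, against 0.0689% of all genes called higher and 0.0% lower. Before adjustment p was under 0.05 (limma) for 6 in the higher direction (Rpsa, Rpl7a, Rps27l, Rpl23a, Rpl13a and Rpl36al) and for 0 in the lower. Over all 21778 genes these counts were 1012 and 661. With edgeR and DESeq2, too, 0 members were called. The lowest adjusted p was 0.350 (limma, Rps27l). The median log2 fold change of the members was 0.35, against 0.03 over all genes tested, with 0.34 for the large and 0.38 for the small subunit, and 88 of 89 were higher on average. The libraries of the 2 groups did not overlap for 23 members in the higher direction, where 8.63% of all genes did the same, and for 0 in the lower direction (6.32%). Without CD11b+ replicate 3 the median was 0.14 and 82 of 89 were higher on average.

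The canonical genes with the highest fold changes between the B cell groups were Rps12, Rplp2, Rpl38, Rps21 and Rps24. Rps12 (ENSMUSG00000061983, chr10:23785183-23787275), a protein of the 40S subunit known from cell competition, had 449, 269 and 208 in PMs, 82.6, 118 and 92.2 in CD11b- B cells and 114, 130.0 and 268 in CD11b+ B cells. CD11b+ replicate 3 lay far above the other B cell libraries and within the PM range, and CD11b+ replicate 1 fell below CD11b- replicate 2, so the groups overlapped (log2 fold change 0.71 ± 0.31 (SE), adjusted p = 0.659 by limma). Rps24 (ENSMUSG00000025290, chr14:24487125-24496959), 1 of the genes mutated in Diamond-Blackfan anaemia, had 48.6, 63.1 and 60.3 in CD11b- and 62.7, 66.7 and 154 in CD11b+ B cells. Again replicate 3 was high and replicates 1 and 2 lay close to the highest CD11b- value (log2 fold change 0.59 ± 0.32, adjusted p = 0.690 by limma). Rpl38, Rps21 and Rplp2 had log2 fold changes of 0.63, 0.59 and 0.63. In each of them replicate 3 was the highest B cell library and replicate 1 lay below the highest CD11b- library. Without replicate 3 the log2 fold changes were 0.33 for Rps12, 0.23 for Rplp2, 0.18 for Rpl38 and Rps24 and 0.12 for Rps21.

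The canonical genes with the lowest fold changes here were Rpl3, Rpl10, Rpl7, Rps10 and Rpl4, all still above 0 on average. Rpl4, which lines the exit tunnel of the nascent chain, had 813, 819.8 and 857 in CD11b- and 925, 983 and 937 in CD11b+ B cells. Its 3 CD11b+ libraries lay close together and above all CD11b- libraries, and replicate 3 was not the highest (log2 fold change 0.19 ± 0.18, adjusted p = 0.727 by limma). For Rpl3 the log2 fold change was 0.10 ± 0.14 and for Rpl10 0.13, and under quantile normalization they were −0.03 and −0.02, so their direction was not settled. Rpl13a, which also acts in translational silencing of inflammatory messages, had 12.7, 12.0 and 10.4 in PMs, 14.3, 12.5 and 11.9 in CD11b- B cells and 17.8, 18.9 and 20.9 in CD11b+ B cells. All 3 CD11b+ libraries were above all libraries of the other groups, with replicate 3 near the others, at a level that ranked 3721 among all genes and with 55.2% of its stretches shared (log2 fold change 0.54 ± 0.14, adjusted p = 0.408 by limma).

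The second comparison set CD11b+ B cells against PMs, and the third CD11b- B cells against PMs. They share the PM libraries, and each shares its B cell libraries with the first comparison, so the results are not independent. CD11b- B cells had less RNA of many ribosomal protein genes than PMs, relative to all reads on genes and without correction for coding length. Of 89 members tested among 20985 genes, 25 fell and 3 rose in CD11b- B cells (limma), against 11.0% of all genes called lower and 25.8% called higher. The falls were 13 of 46 large subunit genes, 10 of 31 small subunit genes and the paralogs Rps27l and Rpl36al, and the rises were Rpl3, Rpl7l1 and Rpl9-ps6. The median log2 fold change of the members was −0.35 where that of all genes was 0.24, and 22 of 89 members were higher on average. For 36 members all CD11b- libraries lay below all PM libraries (15.2% of all genes), and for 6 above (36.1%). Lower calls numbered 9 of 89 without CD11b- replicate 1, 12 without CD11b- replicate 3 and 18 to 34 without any other library. Of all genes, 8.01%, 8.96% and 8.08 to 11.8% were called lower in these fits, so the 9 calls were near the share over all genes. Higher calls numbered 1 without CD11b- replicate 1 or 2 and 2 without CD11b- replicate 3 (19.3 to 22.5% of all genes). With a correction for coding length, described below and chosen after seeing the data, 10 members were lower and 8 higher (median −0.10). Of all genes, 10.9% were then called lower and 26.4% higher.

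Scaling bears on these counts. FPKM divides by all reads on genes, of which the highest gene alone took 3.03 to 6.98% in PMs and 1.57 to 1.88% in B cells. Factors that instead set the bulk of genes level between libraries, by the trimmed mean of M values (TMM) of edgeR or the median ratio of DESeq2, were 0.70 to 0.91 for PM and 1.10 to 1.15 for B cell libraries. With them the median over all genes went from 0.24 to 0.10 (TMM) or 0.06 (median ratio) for CD11b- B cells against PMs, and the split became 46 members lower and 0 higher under TMM (median of members −0.82, with 14.1% of all genes called lower and 17.2% higher) and 55 lower and 0 higher under median ratio (median −0.91, with 15.0% lower and 15.9% higher). A fall of the family in CD11b- B cells was thus present under these scalings, and the rises were not.

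Among the proteins of the stalk, which recruits the GTPases of elongation, Rplp1 and Rplp2 fell in CD11b- B cells and Rplp0, which anchors them, was not called. Rplp1 (ENSMUSG00000007892, chr9:61913284-61914542) had 2389, 2048 and 1301 in PMs, 590.0, 776 and 673 in CD11b- B cells and 684, 816 and 1524 in CD11b+ B cells. Every CD11b- library was below every PM library, and of the CD11b+ libraries only replicate 3 reached the PM range. The CD11b- mean was 0.355 times the PM mean (log2 fold change −1.45 ± 0.29, adjusted p = 0.00631 by limma). Rplp2 (ENSMUSG00000025508, chr7:141447370-141451585) had 350.0, 327 and 198 in PMs, 109, 140.4 and 122 in CD11b- B cells and 137, 153 and 332 in CD11b+ B cells, with every CD11b- library again below every PM library and a CD11b- mean 0.425 times that of PMs (log2 fold change −1.19 ± 0.25, adjusted p = 0.00793). Rplp0, in contrast, had 678, 909.7 and 720.1 in PMs, 749, 804 and 812 in CD11b- B cells and 981, 968 and 1099 in CD11b+ B cells. Its CD11b- libraries lay within the PM range (log2 fold change 0.05 ± 0.21, adjusted p = 0.866), and its CD11b+ libraries were the highest.

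Of the large subunit, Rpl7a and Rpl23 fell most clearly. Rpl7a (ENSMUSG00000062647, chr2:26910764-26913318), whose promoter held the run of 21 pyrimidines shown above, had 476, 376 and 287 in PMs, 139.7, 164 and 155 in CD11b- B cells and 186, 203 and 309 in CD11b+ B cells. The CD11b- libraries were well below the PM libraries, and CD11b+ replicates 1 and 2 lay between them (log2 fold change −1.28 ± 0.22 between CD11b- B cells and PMs, adjusted p = 0.00319 by limma). Rpl23 (ENSMUSG00000071415, chr11:97777527-97782437), known for binding Mdm2 as well as the ribosome, had 671, 506 and 376 in PMs and 182, 220.1 and 180.4 in CD11b- B cells, 0.375 times the PM mean (adjusted p = 0.00373). Rpl28 and Rpl10, which joins the subunit late in its assembly, fell with log2 fold changes of −1.30 and −0.79 (adjusted p = 0.00974 and 0.0108). For Rpl10 91.6% of the stretches are shared with other genes, so its level is uncertain.

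Of the small subunit, Rps12, Rps21, Rps29 and Rps28 were among those that fell in CD11b- B cells. Rps12 was 0.316 times the PM mean (log2 fold change −1.59 ± 0.30, adjusted p = 0.00492 by limma), the lowest of the canonical genes, though 88.9% of its stretches are shared. Rps21 (ENSMUSG00000039001, chr2:180257377-180258445), with 0% shared, had 487, 302 and 197 in PMs, 94.8, 144 and 111 in CD11b- B cells and 116, 135 and 337 in CD11b+ B cells. The PM libraries were far apart from each other, yet all were above the CD11b- libraries, and CD11b+ replicate 3 again lay among the PMs (log2 fold change −1.41 ± 0.33, adjusted p = 0.0136). Rps28 and Rps29, 2 of the smallest proteins of the 40S subunit, fell with log2 fold changes of −1.40 and −1.41 (adjusted p = 0.0118 and 0.0130). Across 20 alternative settings and left-out libraries, 8 of the 25 lower calls held each time, among them Rpl7a, Rpl28, Rplp2, Rps27l, Rps12, Rpl23 and Rpl36al, and 0 of the 3 higher calls did.

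Rpl3 was the canonical gene that rose in CD11b- B cells. The protein lies by the peptidyl transferase centre, and the gene (ENSMUSG00000060036, chr15:80077791-80091868) had 171, 209 and 210.1 in PMs, 354, 370.1 and 331 in CD11b- B cells and 369, 376 and 382 in CD11b+ B cells. All 6 B cell libraries lay above all PM libraries, within a narrow range that included CD11b+ replicate 3 (log2 fold change 0.84 ± 0.17 for CD11b- and 0.94 ± 0.19 for CD11b+ B cells against PMs, adjusted p = 0.00664 and 0.00839 by limma). The means were 1.79 and 1.91 times that of PMs, and 79.4% of the stretches are shared with other genes. In both comparisons with PMs the call was lost under TMM and median-ratio scaling. Rpl32, Rps3 and Rpl4 were among the next, with log2 fold changes of 0.63, 0.58 and 0.34 in CD11b- B cells that did not pass, and Rpl4 was below 0 under median-ratio scaling.

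On FPKM as deposited CD11b+ B cells as a group were near PMs in this family, with replicates on both sides, whereas under TMM and median ratio they were lower on average. Of 89 members tested among 22102 genes, 4 rose (Rpl13a, Rps3, Rpl3 and Rpl9-ps6) and 1 fell (Rps27l), against 21.5% of all genes called higher and 8.78% called lower. The groups did not overlap for 12 members in the higher (34.3% of all genes) and 3 in the lower direction (12.4%). The median was −0.03 against 0.25 over all genes, and 43 of 89 members were higher on average. Under TMM scaling, where the median over all genes was 0.13, the median of the members was −0.53, 15 of 89 were higher on average, and the calls were 0 higher and 9 lower, against 13.2 and 11.7% of all genes. Under median ratio the median was −0.58, 12 of 89 were higher on average, and the calls were 0 higher and 12 lower, against 12.6 and 12.1% of all genes. The lower calls were thus near the share over all genes. Without CD11b+ replicate 3 there were 11 lower calls, with 21.7% of all genes called higher and 7.87% lower, and the median was −0.22, and 2 higher calls were left without any 1 of the CD11b+ libraries or without PM replicate 3.

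Rps3 (ENSMUSG00000030744, chr7:99477896-99483738), which sits at the entry of the message and also acts in DNA repair, had 139, 208 and 217 in PMs, 261, 284 and 280.3 in CD11b- B cells and 292, 303 and 396 in CD11b+ B cells, and 0% of its stretches are shared. All CD11b+ libraries lay above all PM libraries, and PM replicate 1 was the lowest (log2 fold change 0.83 ± 0.25, adjusted p = 0.0385 by limma). The call on Rps3 held in 0 of 6 fits with a library left out and in 7 of 14 other settings. Rpl13a was 1.64 times the PM mean (log2 fold change 0.67 ± 0.19, adjusted p = 0.0280), a call that held in 1 of 6 fits with a library left out and in 8 of 14 other settings. Rpl32 had a log2 fold change of 0.92 (adjusted p = 0.0522). At the other end were Rplp1, Rps28, Rps29, Rps12 and Rpl28, from −0.97 to −0.88, with adjusted p of 0.104 to 0.184. Rps29 had 1736, 1359 and 789 in PMs and 458, 502 and 1234 in CD11b+ B cells. The 2 lower CD11b+ libraries were below all PM libraries and replicate 3 lay among them.

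Coding length ordered the members in both comparisons with PMs, and between the B cell groups in an order that rested on CD11b+ replicate 3. The 77 canonical genes were split by coding length into 27 short (75 to 405 bases), 24 middle (408 to 564) and 26 long genes (576 to 1257). In CD11b- B cells against PMs the median log2 fold change was −0.75 for short, −0.45 for middle and −0.14 for long genes. Of these, limma called 13, 6 and 4 lower and 0, 0 and 1 higher. The lower calls were 48.1, 25.0 and 15.4% of the short, middle and long genes, where 11.0% of all genes were called lower. Of all genes, 25.8% were called higher. The lower calls among long genes were thus near the share over all genes. In CD11b+ B cells against PMs the medians were −0.29, −0.09 and 0.19, and in CD11b+ against CD11b- B cells 0.45, 0.37 and 0.30. Without CD11b+ replicate 3 the last became 0.09, 0.15 and 0.14, with no fall from short to long genes, and those of CD11b+ B cells against PMs −0.62, −0.30 and 0.06. As a description across the 77 genes, which share their libraries, Pearson's r of the log2 fold change with log2 coding length was 0.39, 0.35 and −0.43 in that order (0.33 in place of −0.43 without replicate 3), and over 9937 to 10053 coding genes it was 0.11, 0.07 and −0.20.

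**Figure D3:**
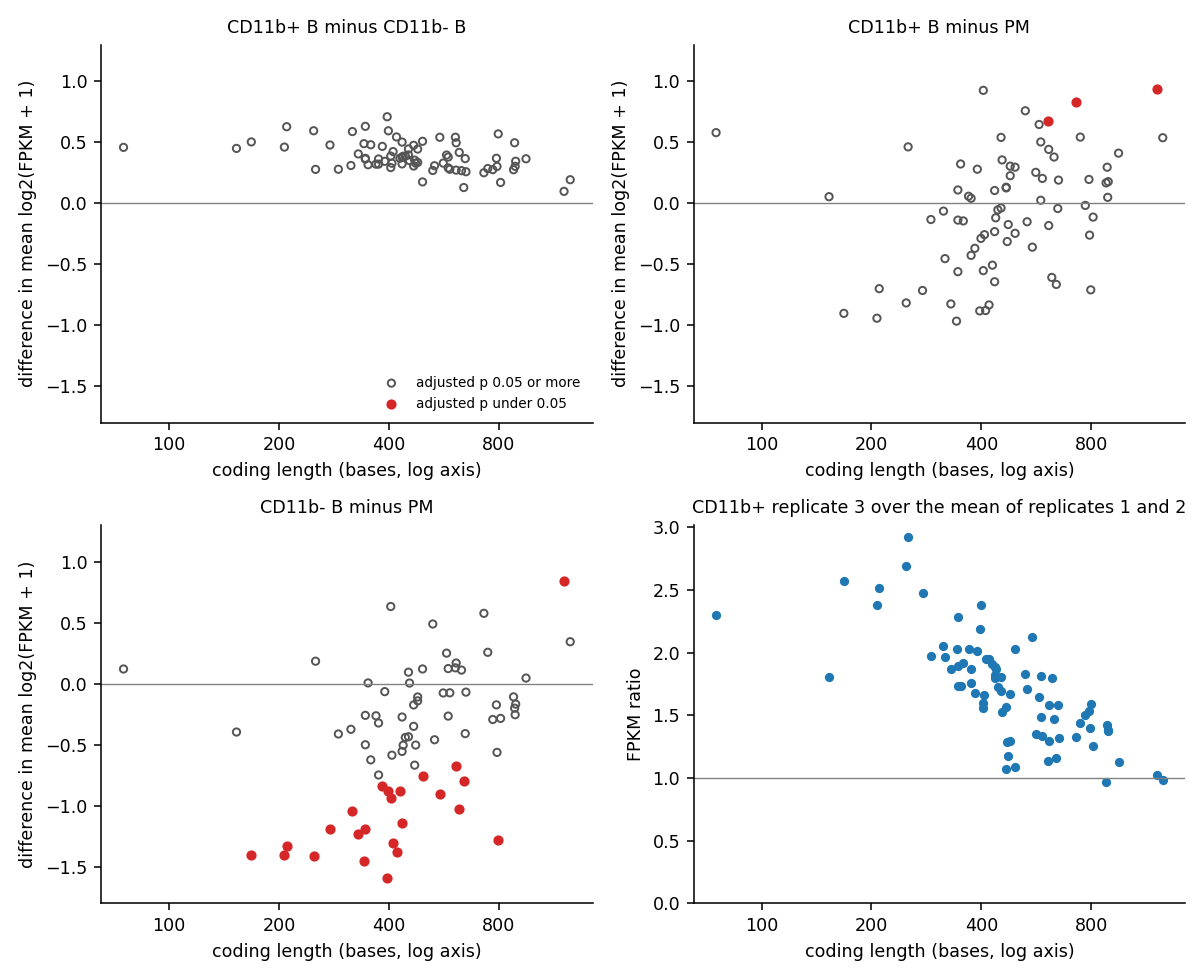
log2 fold change of the canonical genes against coding length (bases, log axis) in the 3 comparisons, with genes past the threshold in red, and in the fourth panel the FPKM of CD11b+ replicate 3 over the mean of replicates 1 and 2. Short genes lie lowest in CD11b- B cells against PMs, with a median of −0.75, and highest in replicate 3 of the CD11b+ group.

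The same order was seen between libraries of 1 group. Compared with replicates 1 and 2, CD11b+ replicate 3 was higher for 75 of 77 canonical genes, by a median of 0.77 on the log2 scale, which was 0.999 for short, 0.78 for middle and 0.48 for long genes. In genes outside the family of the same coding lengths the medians were 0.19, −0.0038 and −0.09, so the shift was larger in the members. In FPKM the ratio of replicate 3 to the mean of replicates 1 and 2 ran from 0.964 for Rps2 over a median of 1.71 to 2.92 for Rps27. Rps27, a zinc finger protein of the 40S subunit, had 501, 562 and 1553 in the 3 CD11b+ libraries and 651, 644 and 399 in PMs. Rps2 and Rpl4 were the 2 genes in which replicate 3 did not exceed the mean of the others. PM replicate 3 differed from the other PMs in the opposite direction, with medians of −0.73, −0.53 and −0.18 for short, middle and long genes. The gradient over length is therefore present among replicates as well as among groups. With the log2 values corrected for coding length, an alternative chosen after seeing the data, CD11b- B cells against PMs had 10 lower and 8 higher members and a median of −0.10, with 10.9% of all genes called lower and 26.4% higher, so the lower calls were near the share over all genes. Fragment size and RNA integrity per library were not used here, and their part was not tested.

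Some ribosomal proteins have a paralog encoded by a second gene, and 4 such pairs were measured well enough for a ratio of FPKM. Rps27l (ENSMUSG00000036781, chr9:66946086-66949516), a target of p53, was the member with the lowest p-value in all 3 comparisons. It had 252, 289 and 199 in PMs, 83.8, 82.4 and 69.2 in CD11b- B cells and 117, 108 and 134 in CD11b+ B cells, and 0% of its stretches are shared. The 3 groups did not overlap, with PMs highest, CD11b+ B cells between and CD11b- B cells lowest, and CD11b+ replicate 3 lay close to its group. Means were 247 ± 45.2, 119 ± 13.2 and 78.4 ± 8.08 FPKM in that order. Rps27l fell in CD11b- (log2 fold change −1.63 ± 0.19, adjusted p = 0.000537) and in CD11b+ B cells (log2 fold change −1.03 ± 0.21, adjusted p = 0.00809 by limma) relative to PMs, and both calls held in all 20 alternatives. Between the B cell groups the log2 fold change was 0.60 ± 0.14 (adjusted p = 0.350). Relative to Rps27, the paralog stood at 38.6, 44.9 and 49.9% in PMs, 17.7, 11.1 and 9.85% in CD11b- and 23.4, 19.1 and 8.61% in CD11b+ B cells. The PM ratios were the highest, and the B cell groups overlapped. The exact two-sided permutation test gave p = 0.1 for each B cell group against PMs, the smallest it can give with 3 against 3 (adjusted p = 0.4 over 12 tests), and p = 0.6 between the B cell groups. Rps27 shares 98.4% of its stretches with other genes, so the ratio is uncertain on that side.

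Rpl7l1, a paralog of Rpl7 that acts in the maturation of the large subunit, went the other way. It had 18.2, 34.6 and 37.0 in PMs, 60.4, 50.9 and 49.6 in CD11b- B cells and 53.1, 50.5 and 34.9 in CD11b+ B cells, and rose in CD11b- B cells against PMs (log2 fold change 0.88 ± 0.27, adjusted p = 0.0392 by limma), a call that held in 3 of 6 fits with a library left out. Only CD11b+ replicate 3, the library with the most ribosomal protein RNA, lay among the PMs. Rpl7 itself had 567, 470.0 and 439 in PMs, 389, 407 and 409 in CD11b- B cells and 399.9, 438 and 527 in CD11b+ B cells. The ratio was 3.22, 7.37 and 8.42% in PMs, 15.5, 12.5 and 12.1% in CD11b- and 13.3, 11.5 and 6.62% in CD11b+ B cells. All CD11b- ratios were above the PM ratios (exact permutation test, p = 0.1), and those of CD11b+ B cells were not (p = 0.3). Rpl7l1 was the single tested member with a lower mean in CD11b+ than in CD11b- B cells (log2 fold change −0.23 ± 0.18, adjusted p = 0.727).

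Rpl22l1 stood at 39.0 ± 8.41% of Rpl22 in PMs, 51.6 ± 6.14% in CD11b- and 48.5 ± 14.5% in CD11b+ B cells (SD, n = 3), with exact permutation p-values of 0.2 to 0.7. Rpl22, whose loss is known to block lymphocyte development, had 117, 105 and 70.5 in PMs, 53.7, 55.6 and 49.9 in CD11b- B cells and 59.1, 64.7 and 104 in CD11b+ B cells, and fell in CD11b- B cells against PMs (log2 fold change −0.84 ± 0.21, adjusted p = 0.0175 by limma), a call that held in 2 of 6 fits with a library left out and was lost with the coding length correction (adjusted p = 0.111). Rpl22l1 had 37.7, 38.2 and 34.2 in PMs, 30.9, 28.8 and 22.6 in CD11b- B cells and 37.7, 30.1 and 36.5 in CD11b+ B cells. Its CD11b- libraries lay below the PM libraries and its CD11b+ libraries overlapped both. Rpl36al and Rpl36a both fell in CD11b- B cells (log2 fold changes −1.19 and −1.04, adjusted p = 0.00496 and 0.0168). Their ratio was 12.6 ± 6.14% in PMs, 10.2 ± 3.12% in CD11b- and 11.3 ± 4.73% in CD11b+ B cells, which differed by less than the spread between replicates.

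**Figure D4:**
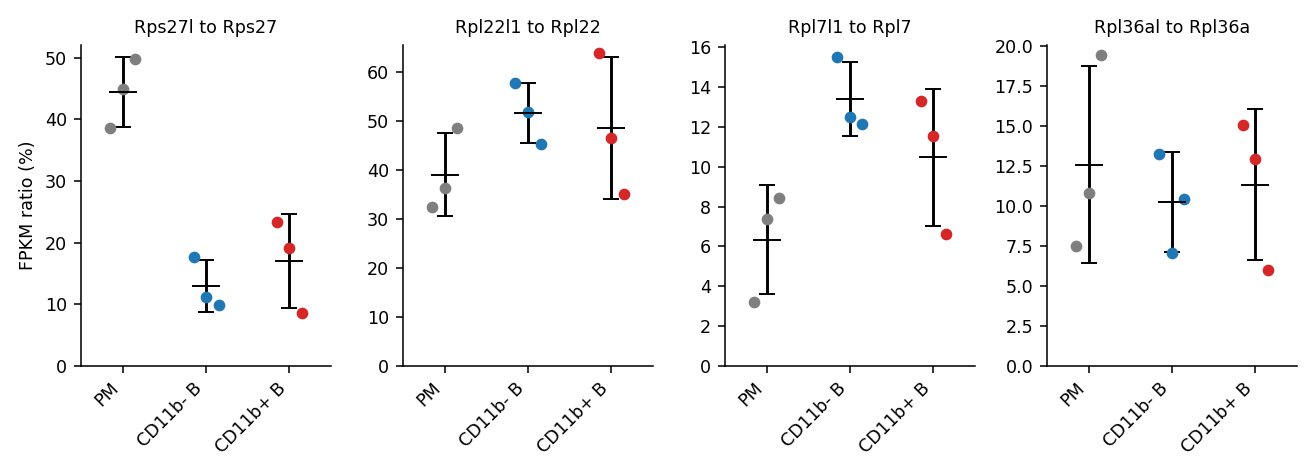
FPKM of 4 paralogs as a percentage of the FPKM of their main copy in each library, with points for replicates and bars for mean ± SD (n = 3). For Rps27l the PM libraries lie at 38.6 to 49.9%, above all B cell libraries, and for Rpl7l1 the CD11b- libraries lie at 12.1 to 15.5%, above all PM libraries.

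The paralogs of restricted tissues were at or near 0. Rpl3l, known from heart and skeletal muscle, ranged from 0 to 0.674 FPKM, Rpl39l, known from testis, from 0 to 0.828, and Rpl10l, also of testis, had 0.0373 FPKM in 1 CD11b+ library and was at 0 in the other 8. Rps18-ps6 had 0 reads in all libraries, which allows up to 3 reads over a group, and with Rpl10l, Rps23rg1 and Rpl36-ps4 it made up the 4 members that did not pass the filter. Of the retrocopies, Rpl9-ps6 (ENSMUSG00000062456, chr19:32465865-32466578) had 6.22, 8.87 and 17.2 in PMs, 26.4, 31.7 and 23.1 in CD11b- B cells and 34.0, 29.5 and 29.8 in CD11b+ B cells. All B cell libraries were above all PM libraries (log2 fold change 1.35 ± 0.34 for CD11b- and 1.55 ± 0.33 for CD11b+ B cells, adjusted p = 0.0165 and 0.00902 by limma). The CD11b- call held in 3 and the CD11b+ call in 6 of 6 fits with a library left out, and each held in 9 of 14 other settings, edgeR and DESeq2 not among them. It shares 80.2% of its stretches with other genes, and Rpl9 had 164, 211 and 219 in PMs, 209, 254 and 241 in CD11b- B cells and 244, 278 and 429 in CD11b+ B cells, so reads of the 2 cannot be told apart with certainty. Rps27rt, Rpl10-ps3, Rps18-ps5 and Rpl36a-ps1 ranged from 0 to 27.2 FPKM without a call, as did Rps19bp1, from 17.7 to 39.3 FPKM.

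Genes of neighbouring pathways set the family in context. Of 37 genes of ribosome biogenesis, the nucleolar factors that make and assemble ribosomal RNA, 25 rose and 1 fell in CD11b- B cells against PMs (median log2 fold change 1.04), and 24 rose and 0 fell in CD11b+ B cells (median 1.06). Over all genes, 25.8% were called higher and 11.0% lower in CD11b-, and 21.5% higher and 8.78% lower in CD11b+ B cells. Nop56, a core protein of box C/D particles, had 19.4 ± 4.78 FPKM in PMs, 97.6 ± 0.264 in CD11b- and 86.8 ± 27.5 in CD11b+ B cells (SD, n = 3), with log2 fold changes of 2.30 and 2.08 against PMs (adjusted p = 0.000125 and 0.00149 by limma). Dkc1, the pseudouridine synthase dyskerin, had 7.70 ± 1.47, 45.1 ± 8.85 and 47.2 ± 16.0, and both B cell groups were above PMs (adjusted p = 0.000150 and 0.000646). Biogenesis genes and ribosomal protein genes thus stood apart in the comparisons with PMs. The gene that fell was Nop10 (log2 fold change −0.80, adjusted p = 0.0226), a small protein of the box H/ACA particles. Between the B cell groups 0 of the 37 were called (median 0.01), below the median of 0.35 of the members, but without CD11b+ replicate 3 these medians were 0.11 and 0.14. Scaling changed the counts. Against PMs the median of biogenesis genes lay above that of the members in each setting. A scaling factor moves both lists nearly alike, so TMM and median-ratio scaling could not change this order. Quantile normalization, which is no such factor, gave the smallest distance, 0.85 in CD11b- and 0.64 in CD11b+ B cells. Under TMM 12 biogenesis genes rose and 1 fell in CD11b- (median 0.59) and 6 rose and 0 fell in CD11b+ B cells (median 0.58), and under median ratio 11 rose and 2 fell, and 6 rose and 1 fell. The shares of all genes called higher under TMM were 17.2% in CD11b- and 13.2% in CD11b+ B cells, and under median ratio 15.9 and 12.6%. The CD11b+ count of 6 of 37 was thus near them. With quantile normalization 13 and 9 rose (16.3 and 12.2% of all genes), and without the filter on low FPKM 18 and 13, where 4789 of 31064 and 3603 of 35927 genes were called higher. Over all settings the median of this list lay 0.85 to 1.49 above that of the members in CD11b- and 0.64 to 1.41 above in CD11b+ B cells against PMs.

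The mitochondrial ribosomal protein genes (78) had a median log2 fold change of 0.24 in CD11b- and 0.38 in CD11b+ B cells against PMs, with 12 rises in each and 7 and 3 falls. The medians over all genes were 0.24 and 0.25, and the rises and falls were smaller shares of this list than of all genes. These medians over all genes depended on the setting, with 0.69 and 0.74 at a pseudocount of 0.1 and 0.53 in both at a minimum FPKM of 1. Under TMM these became 3 rises and 13 falls, and 1 rise and 9 falls. Of all genes, 17.2% were then called higher and 14.1% lower in CD11b-, and 13.2 and 11.7% in CD11b+ B cells. The falls were thus near the share over all genes, and the balance of calls depended on the scaling. Between the B cell groups 0 were called (median 0.14). Of 20 other genes known for terminal oligopyrimidine messages, 4 rose and 4 fell in CD11b- B cells against PMs, and 6 rose and 2 fell in CD11b+ B cells, with 0 calls between the B cell groups (median 0.27). Over all genes, 25.8% were called higher and 11.0% lower in CD11b-, and 21.5 and 8.78% in CD11b+ B cells against PMs. Under TMM the calls on this list became 3 rises and 8 falls (median −0.30, from 0.16) and 3 rises and 2 falls (median −0.15, from 0.35), and under median ratio 3 and 9 (−0.39) and 3 and 2 (−0.21), so the balance of this list depended on the scaling too. The shares of all genes under TMM are given above. Under median ratio 15.9% were called higher and 15.0% lower in CD11b-, and 12.6 and 12.1% in CD11b+ B cells. Tpt1, the translationally controlled tumour protein, had 955 ± 416 FPKM in PMs, 159 ± 16.9 in CD11b- and 269 ± 142 in CD11b+ B cells, and fell in both (adjusted p = 0.000900 and 0.0154 by limma), as did Pabpc1, the poly(A) binding protein (log2 fold changes −1.54 and −1.01). Hnrnpa1 rose in both (1.35 and 1.59, adjusted p = 0.00184 and 0.000765).

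Among the ribosomal proteins with other names, Rack1, a scaffold on the 40S subunit, had 264 ± 38.0 FPKM in PMs, 146 ± 10.9 in CD11b- and 192 ± 33.7 in CD11b+ B cells, and fell in CD11b- B cells (log2 fold change −0.84 ± 0.17, adjusted p = 0.00768 by limma), while Fau, which encodes a ribosomal protein fused to a ubiquitin-like protein, was not called in any comparison on FPKM as deposited, though under median ratio it was lower in CD11b- B cells than in PMs (adjusted p = 0.0378). Of the 3 genes in this list, the highest went the other way without a call, with log2 fold changes of 0.63 in CD11b- and 1.05 in CD11b+ B cells against PMs. Of 9 genes of cap binding, 3 rose and 0 fell in CD11b- and 4 rose and 1 fell in CD11b+ B cells against PMs, while under TMM and under median ratio 1 rose and 2 fell in each. Over all genes, 25.8% were called higher and 11.0% lower in CD11b-, and 21.5 and 8.78% in CD11b+ B cells. These became 17.2 and 14.1%, and 13.2 and 11.7%, under TMM, and 15.9 and 15.0%, and 12.6 and 12.1%, under median ratio. Eif4e, the cap binding protein, rose in both B cell groups (adjusted p = 0.00283 and 0.00680 by limma), a call lost in CD11b+ B cells under TMM (0.0798) and median ratio (0.0884). Of 17 regulators, 6 rose and 2 fell in CD11b- and 5 rose and 0 fell in CD11b+ B cells, to be read against the shares of all genes given above. Under TMM these became 5 and 2 in CD11b- and 2 and 3 in CD11b+ B cells, and under median ratio 5 and 2, and 0 and 3. Mtor rose in both groups (1.56 and 1.37), a call lost in CD11b+ B cells under median ratio (adjusted p = 0.0564), and Larp1, which binds the pyrimidine tract, fell in CD11b- B cells (−0.62, adjusted p = 0.0322). Myc, an activator of ribosome biogenesis, had 38.3 ± 7.23, 37.9 ± 5.07 and 39.9 ± 9.68 FPKM in PMs, CD11b- and CD11b+ B cells, with log2 fold changes of −0.0033 and 0.05 against PMs in CD11b- and CD11b+ B cells, which under TMM were −0.46 and −0.45 and did not pass. Between the B cell groups 0 genes of these 3 lists were called.

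**Figure D5:**
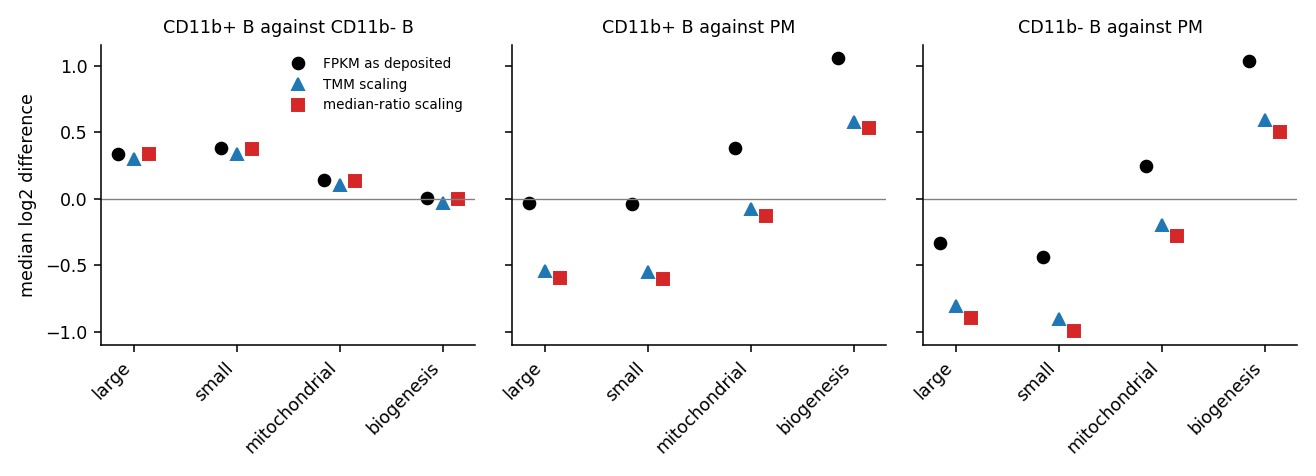
Median log2 fold change of large subunit, small subunit, mitochondrial ribosomal protein and ribosome biogenesis genes in each comparison, on FPKM as deposited and after TMM or median-ratio scaling. Against PMs the biogenesis genes lie highest and the ribosomal protein genes lowest, an order that scaling factors, which move the lists nearly alike, could not change. In CD11b+ against CD11b- B cells the ribosomal protein genes lie highest, an order not kept without CD11b+ replicate 3, where the medians were 0.14 for both subunits and 0.17 for the mitochondrial genes.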

How the data were processed

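Libraries had been made with a SMART-seq HT kit, which amplifies full-length cDNA, and sequenced as read pairs. Per the labels and the study's methods, the authors trimmed reads with Trim Galore (version 0.4.4), Trimmomatic (0.36) and cutadapt (1.16), mapped them with STAR (2.7.2b) and counted them on genes with featureCounts (1.6.1). The methods name GRCm38, whereas the submitters' processing notes list both GRCm38 and GRCm39 with no role for either. Strand setting and treatment of reads that fit several genes are not given in the sources used here. For 55322 genes the authors deposited FPKM, their counts over exon length and reads on genes. A second deposited table gives a normalized signal, counts divided by a size factor, for 11063 genes (68 members), selected by a p-value whose comparison is not stated.

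FPKM times exon length gave whole reads for 100% of values, within 0.05 of a read, and the same reads as the second table. Depth was 18014658 to 35251215 reads on genes. The kit adds no molecular identifiers, so a limit from 0 reads covers counting error only. Each comparison was fitted with limma (3.58.1, R 4.3.3; lmFit, eBayes with trend, two-sided) on log2(FPKM + 1) in its 6 libraries, for every gene whose mean FPKM there reached 0.05, with p-values adjusted by Benjamini-Hochberg over all of them (threshold 0.05). The pseudocount understates changes of low genes. The fit was first tested on simulated data. Log2 ratios of paralogs were compared by exact permutation (two-sided). Alternatives were another pseudocount (0.1), no filter, a minimum FPKM of 1, a replicate block, one fit of all 9 libraries, TMM and median-ratio scaling, scaling to reads outside the family and immunoglobulin genes, quantile normalization, eBayes without trend, a lowess correction for exon length, edgeR (4.0.16) and DESeq2 (1.42.0, genes with at least 10 reads) on the whole reads, each library left out, and, chosen after seeing the data, the same correction for coding length (span 0.3) and a block by the numbers in the sample descriptions. A fold change on the original scale is the ratio of mean FPKM.

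Positions are those of GENCODE M21 (GRCm38) by identifier: 52046 identifiers are in it, but 1462 genes have the same start as in the table, so neither the authors' annotation nor the build of the starts in the table is known. Shared stretches are the share of 100-base stretches of a gene's principal coding transcript found in a transcript of another gene. Promoters came from RefSeq tables (GRCm38.p6), 250 bases before to 50 from the start.

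The members, the lists of other genes and the tests were chosen with earlier results of these data known. The genes named are, per comparison, the 5 canonical members with the highest and the 5 with the lowest log2 fold change, called members where these are 10 or fewer, the 5 highest and 5 lowest in mean FPKM, the 3 stalk genes, and members that are no canonical copy with their main copy. Rpl7a, Rpl23, Rpl38 and other genes outside this rule, like single members of the other lists, were picked with their values in view. Some genes are not reported here singly and not drawn in the heatmap, though counts and medians include them.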

Additional observations from a re-analysis of the deposited data

How the results depend on the processing

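In CD11b+ against CD11b- B cells 0 members were called in either direction under every alternative run, and the median, 0.35 as reported, stayed above 0, at 0.23 with quantile normalization, 0.25 with the coding length correction and 0.14 (without CD11b+ replicate 3) to 0.52 with 1 library left out. In CD11b- B cells against PMs the median stayed below 0 throughout, but the counts moved. With median-ratio scaling 55 members were lower and 0 higher (median −0.91), with TMM 46 and 0 (−0.82), with edgeR 58 and 0 (−0.93) and with DESeq2 62 and 0 (−0.95). Of all genes, 15.0, 14.1, 20.9 and 19.2% were called lower in that order, and 15.9, 17.2, 21.1 and 17.7% higher. The higher calls were 5 with a minimum FPKM of 1 and 7 with quantile normalization, and with the coding length correction 8 were higher and 10 lower (−0.10). Leaving out 1 library gave 1 to 3 higher and 9 to 34 lower calls, where 19.3 to 28.0% of all genes were called higher and 8.01 to 11.8% lower. In CD11b+ B cells against PMs median-ratio scaling gave 0 higher and 12 lower (−0.58), TMM 0 and 9 (−0.53), edgeR 0 and 16 (−0.51) and DESeq2 0 and 24 (−0.51). Of all genes, 12.1, 11.7, 18.1 and 15.4% were called lower in that order, and 12.6, 13.2, 18.7 and 16.1% higher. The edgeR count, 16 of 86 members, was near the share over all genes. Lower calls were 2 with a pseudocount of 0.1, a minimum FPKM of 1, quantile normalization or eBayes without a trend, and 4 with all 9 libraries in one fit. Of all genes, 9.23, 14.7, 12.2, 8.91 and 10.2% were called lower in that order. The coding length correction gave 8 higher calls, against 21.9% of all genes, and a median of 0.13. The median, −0.03 as reported, was also above 0 with scaling to reads outside the family and immunoglobulin genes (0.0213), quantile normalization (0.0294) and the exon length correction (0.0215). Leaving out 1 library gave 2 to 3 higher and 1 to 11 lower calls and medians from −0.22 to 0.13. In these fits 14.7 to 22.2% of all genes were called higher and 6.3 to 9.15% lower. The cause of these changes was not tested.

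As a share of summed FPKM in place of reads, the family held 7.56% in PMs, 6.41% in CD11b- and 7.61% in CD11b+ B cells. By whole reads in place of FPKM the ratios were 17.4% for Rpl7l1 to Rpl7 in CD11b- B cells, 34.8% for Rps27l to Rps27 in PMs, and 26.7%, 35.2% and 33.1% for Rpl22l1 to Rpl22 in PMs, CD11b- and CD11b+ B cells, since reads are not divided by length. Of the genes named, some changed direction without being called. Between the B cell groups these were Rpl10 (−0.0197) and Rpl3 (−0.0298) with quantile normalization. In CD11b- B cells against PMs they were Rpl4 with median-ratio scaling (−0.22), TMM (−0.13), edgeR (−0.19) and DESeq2 (−0.21), and Rps3 with DESeq2 (−0.00433). Of the values of single named genes over all alternatives, 848 kept their direction and their side of the threshold, 134 lost and 41 gained a call, and 7 changed direction. The 848 include genes that stayed uncalled, as all did between the B cell groups. Of the calls in CD11b- B cells against PMs, 8 of 25 lower and 0 of 3 higher held in all 20 alternatives. In CD11b+ B cells 1 of 1 lower and 0 of 4 higher calls did.

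The replicate numbers were not taken to pair the samples, since no source used here says that a number marks a shared animal or day and not every pair correlated above 0.1. Deviations of libraries with the same number correlated at 0.287, −0.0170 and 0.209 between the B cell groups, −0.0960, 0.0937 and −0.140 between CD11b+ B cells and PMs, and −0.0329, −0.0349 and −0.0190 between CD11b- B cells and PMs. With a replicate block, 2 members were higher and 1 lower in CD11b+ B cells against PMs, 3 higher and 23 lower in CD11b- B cells against PMs, and 0 were called between the B cell groups. Of all genes, 18.6% were called higher and 7.89% lower in CD11b+, and 23.6 and 10.4% in CD11b- B cells against PMs. The sample descriptions carry other numbers, by which replicates 1 of the B cell groups share 1 number and replicates 3 another, the pairs with the higher correlations, while replicates 2 share none. A block by these numbers in those 4 libraries, chosen after seeing the data, called 0 members (median 0.52). Depth limits the paralogs at or near 0, whose ratios were not formed.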
